A study of Mus musculus with 6 samples.

Results

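The aminoacyl-tRNA synthetases, the enzymes that load each amino acid onto its tRNA, were compared between antibody-secreting plasma cells and naive B cells of the mouse. The set was given by name, as 20 genes for cytosolic and 16 for mitochondrial enzymes. A gene entered when its annotated symbol equalled a listed one or carried an added 1, which applied to Mars1. Of the 36 genes, 35 were measured among the 18193 genes of the arrays, 19 cytosolic and 16 mitochondrial. No probe set was matched to Dars, which is not analysed here. All samples came from the C57BL/6 strain. The plasma cell group held 3 arrays of B220 negative, CD138 positive cells of the bone marrow, from mice boosted 7 days earlier with the antigen KLH (keyhole limpet hemocyanin) and isolated by bead enrichment and sorting. The B cell group held 3 arrays of B220 positive, CD23 positive cells of the spleen, for which the labels name no boost. Each plasma cell array used 50000 to 70000 cells and each B cell array 2000000 to 3000000, so tissue, boost, enrichment and input cannot be told apart from cell type. The labels give no age and do not tie replicates to separate animals. The p-values thus set the difference between group means against the spread within these groups only, and that spread may be technical. The arrays measure RNA of whole populations, in which fewer cells that express a gene and less RNA per cell cannot be told apart.

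A synthetase activates its amino acid with ATP and joins it to the matching tRNA, and the charged tRNA is what the ribosome reads. Cytosolic enzymes serve the ribosomes that make most proteins of the cell, antibody included, whereas mitochondrial enzymes, also encoded in the nucleus, serve the few proteins translated inside mitochondria. Uncharged tRNA is sensed by the kinase GCN2, which raises translation of the transcription factor ATF4, and several cytosolic synthetase genes are known ATF4 targets.

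Before the results, 1 array needs to be set apart. B cell array 1 had correlations of log2 values of 0.934 and 0.926 with the other B cell arrays, which had 0.992 with each other. The 11 measured markers of T and NK cells summed to an intensity of 5404 on it against 310 and 368 on B cell arrays 2 and 3, the 10 granulocyte markers to 12953 against 3008 and 1991, the 5 erythroid markers to 1447 against 90 and 109 and the 8 monocyte and macrophage markers to 6128 against 3905 and 4372. On the plasma cell arrays these sums were 5859 to 6267, mostly from Cd28 (4225 to 5205), 8593 to 20215, 216 to 532 and 1910 to 2357. Over background lay 10, 6 and 8 of the T and NK cell markers on the B cell arrays and 9 to 10 on the plasma cell arrays, 7 to 9 and 8 to 9 of the granulocyte markers, 0 to 3 and 1 to 5 of the erythroid markers, and 7 to 8 and 6 to 7 of the monocyte and macrophage markers. The defining T cell gene Cd3e was at 1965, 27.2 and 36.5 on the B cell arrays and at 225, 175 and 502 on the plasma cell arrays. Xist, transcribed from the inactive X chromosome, was at 8408, 30.8 and 18.1 on the B cell arrays and at 8070 to 8702 on the plasma cell arrays. The labelled cell types were present: the 6 plasma cell markers summed to 76110 to 78330 on plasma cell arrays and 13014 to 13501 on B cell arrays, and 5 B cell markers to 2816 to 3432 and 34383 to 38944. All 19 cytosolic synthetase genes and 15 of 16 mitochondrial ones were lower on B cell array 1 than the mean of arrays 2 and 3, with median log2 differences of -0.38 and -0.56, while 9206 of all 18193 genes were lower there. Results are therefore also given without that array, in a fit in which Xist separates the groups. That fit does not balance the other cell types. In it 7 of 10 granulocyte and 4 of 11 T and NK cell markers were called higher, against 1 and 2 with all arrays. Of 5 erythroid markers 1 was called higher, against 0. Of 8 monocyte and macrophage markers 2 were higher and 3 lower, against 1 and 4. The part of these other cell types and of sex in the results was not tested.

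Most cytosolic synthetase transcripts were higher in plasma cells, whereas most mitochondrial ones were not called. Of 19 cytosolic genes 13 rose, 0 fell and 6 were not called, with a median log2 fold change of 0.87. A gene is called at an adjusted p under 0.05 in limma's test over all genes, and fold changes are on the scale of log2(intensity + 16). That is 68.4% of the cytosolic genes, where 17.6% of all genes tested were called higher and 29.9% in either direction. Of 16 mitochondrial genes 1 rose, 4 fell and 11 were not called, with a median of -0.13. The share of mitochondrial genes called higher was 6.2%, under the 17.6% of all genes. The corresponding share called lower was 25.0%, where 12.3% of all genes were called lower and their median fold change was -0.06. On 16 cytosolic genes every plasma cell array lay above every B cell array, against 25.4% of all genes. For the mitochondrial genes this held for 3, and 5 lay entirely below, against 22.4% of all genes below and 47.8% that did not overlap in either direction. Without B cell array 1 the cytosolic genes had 14 higher and 1 lower (median 0.74), the mitochondrial genes 3 higher and 8 lower (median -0.25), and all genes 22.7% higher and 21.1% lower. All 35 genes lay over background on all 6 arrays.

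**Figure D1:**
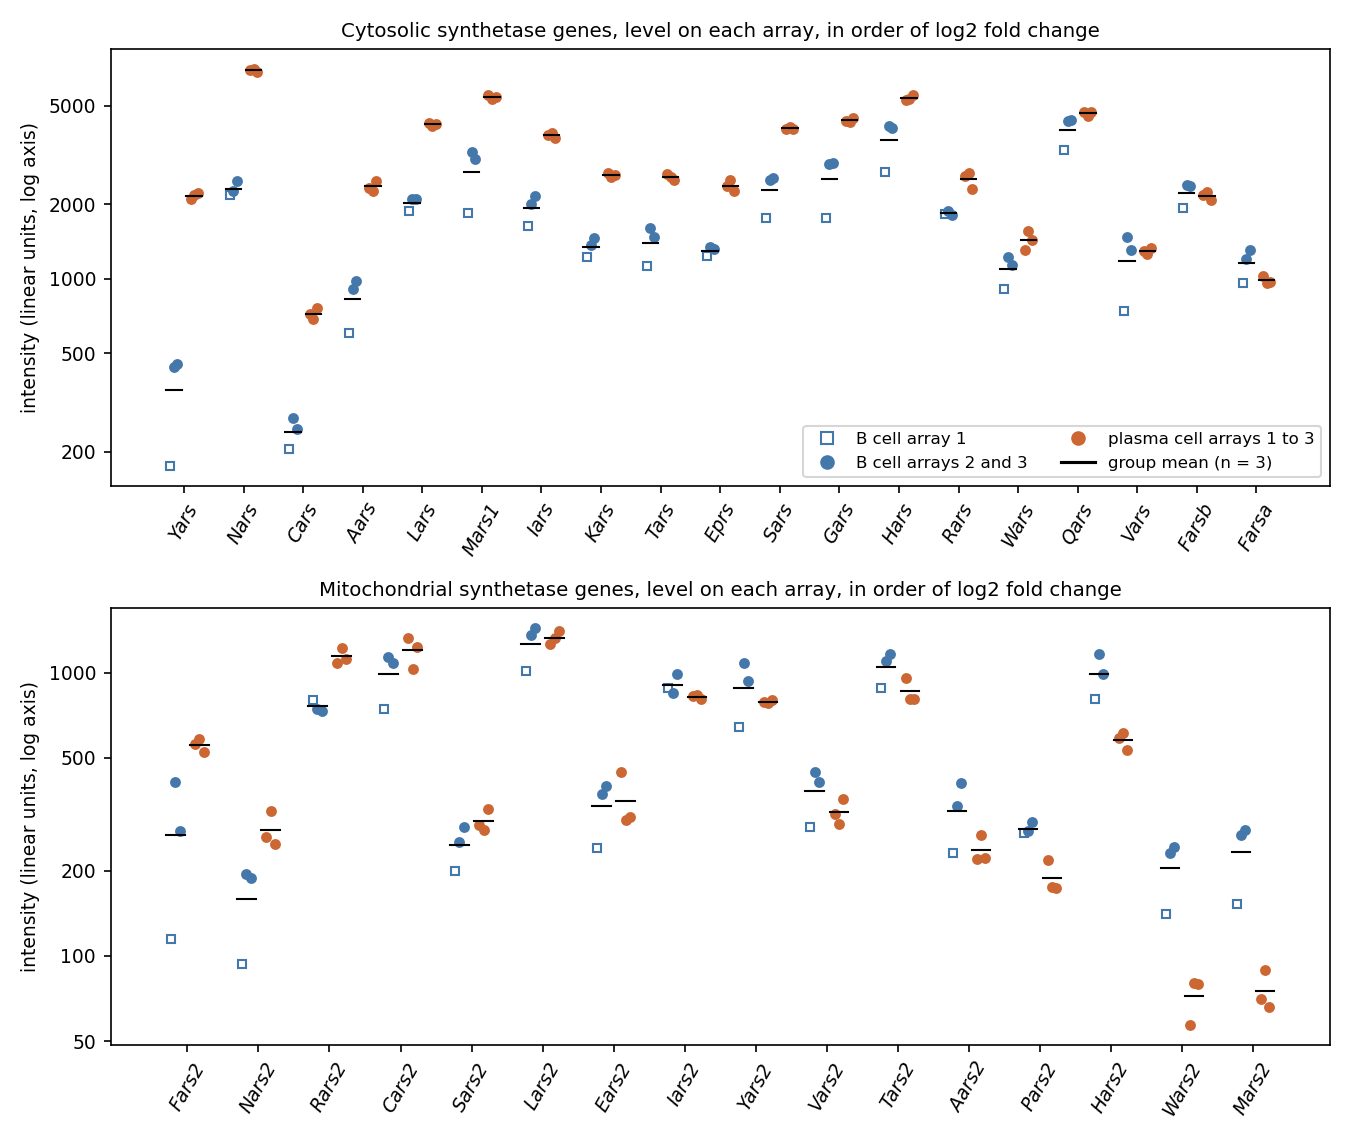
Intensity of each synthetase gene on each array (linear units on a log axis), with cytosolic genes above and mitochondrial genes below, in order of log2 fold change. Blue squares are B cell array 1, blue circles B cell arrays 2 and 3, orange circles the 3 plasma cell arrays, and black lines group means. For 16 of 19 cytosolic genes and 3 of 16 mitochondrial genes all plasma cell points lie above all B cell points.

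The largest rise was that of Yars, the tyrosine enzyme. Its intensity was 176, 441 and 455 on B cell arrays 1 to 3 and 2093, 2177 and 2222 on plasma cell arrays 1 to 3. Groups were far apart, and B cell array 1 was the lowest of all. The log2 fold change was 2.66 ± 0.36 (SE, adjusted p = 0.00299), and 2.23 without B cell array 1 (adjusted p = 0.000102). It stood at percentile 97.5 of the fold changes of all genes. Nars, which charges asparagine tRNA, was at 2183, 2262 and 2477 in B cells and 6958, 7033 and 6872 in plasma cells. Here B cell array 1 did not stand apart, and the fold change of 1.59 ± 0.11 (adjusted p = 0.000282) was 1.55 without it. A second probe set of Nars rose by 1.74 ± 0.14.

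Cars and Aars, for cysteine and alanine, came next. Cars was at 205, 273 and 247 in B cells and 718, 687 and 762 in plasma cells, a rise of 1.53 ± 0.14 (adjusted p = 0.000745). Aars was at 606, 907 and 978 in B cells and 2337, 2257 and 2489 in plasma cells (1.52 ± 0.20, adjusted p = 0.00276). In both genes the lowest plasma cell array was more than 2-fold above the highest B cell array. The other probe set of Aars rose by 1.61 ± 0.21, whereas that of Cars, dim at 29.8 to 67.3 on the 6 arrays, was not called. Without B cell array 1 the fold changes were 1.42 for Cars and 1.31 for Aars.

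Several cytosolic synthetases are held together in the multisynthetase complex. All 7 measured enzymes of it lay above the B cell arrays on every plasma cell array, as did 16 of 19 cytosolic genes. Of all genes 25.4% did. Of the 7, 6 rose (85.7%, median 0.96), against 68.4% of the cytosolic genes and 17.6% of all genes. The leucine enzyme gene Lars was at 1883, 2109 and 2109 in B cells and 4257, 4129 and 4226 in plasma cells (1.04 ± 0.11, adjusted p = 0.00126). Lars thus reached about the same level on each plasma cell array, with an SD of 66.9. Mars1, for methionine, rose by 1.04 ± 0.24, the isoleucine enzyme gene Iars by 0.98 ± 0.14 and Eprs, whose protein charges both glutamate and proline tRNAs, by 0.87 ± 0.11. Kars, which serves lysine in both compartments from a common gene, was at 1227, 1367 and 1456 in B cells and 2674, 2576 and 2638 in plasma cells (0.96 ± 0.12, adjusted p = 0.00217). The arginine enzyme gene Rars rose least, by 0.45 ± 0.12, from 1834, 1872 and 1814 to 2607, 2688 and 2301. Qars, for glutamine, was the complex member not called (0.23 ± 0.15, adjusted p = 0.32). It was at 3300, 4332 and 4394 in B cells and 4701, 4565 and 4704 in plasma cells, so its groups did not overlap but nearly met. The 3 scaffold genes of the complex had a median of 0.16. Aimp2 rose by 0.46 ± 0.14, and Aimp1 (0.13 ± 0.12) and Eef1e1 (0.16 ± 0.12) were not called.

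Outside the complex, Tars (threonine) rose by 0.88 ± 0.16, Sars (serine) by 0.85 ± 0.18 and Gars by 0.82 ± 0.22. Gars supplies glycine enzyme to both compartments and was at 1766, 2899 and 2945 in B cells and 4360, 4288 and 4443 in plasma cells. Its B cell values spread widely, with B cell array 1 far below the others, and without that array the rise was 0.58 (adjusted p = 0.00391). Calls of 4 cytosolic genes were lost on leaving out 1 array. They were Gars without any array other than B cell array 1 (adjusted p up to 0.116), Mars1 and Sars without any plasma cell array (up to 0.0745 and 0.0615), and Rars without B cell array 2 or 3 or plasma cell array 1 or 2 (up to 0.13). Median centring of the arrays ended the same 4 calls. The other 9 called cytosolic genes were called in all 17 settings.

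The cytosolic genes that were not called fell into different kinds. Hars, for histidine, had separate groups, at 2699, 4132 and 4070 against 5283, 5303 and 5512 in plasma cells (0.59 ± 0.20, adjusted p = 0.0719), and was called higher without B cell array 1 (0.39, adjusted p = 0.0154). Its other probe set rose by 0.78 ± 0.14. Wars, for tryptophan, was at 912, 1227 and 1137 in B cells and 1304, 1555 and 1440 in plasma cells (0.39 ± 0.16, adjusted p = 0.121), and 2 of its 3 other probe sets rose, by 1.05 ± 0.22 and 0.53 ± 0.16. For these genes the call depends on the probe set. Vars, for valine, overlapped between groups, with 745, 1475 and 1310 against 1299, 1256 and 1336. Its fold change was 0.20 ± 0.27, and -0.10 without B cell array 1.

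Neither subunit gene of the phenylalanine enzyme was called in the fit of all arrays. Farsa, the catalytic alpha subunit, was at 961, 1205 and 1313 in B cells and 1031, 965 and 973 in plasma cells (-0.21 ± 0.15, adjusted p = 0.349). Farsb, the beta subunit, was at 1929, 2384 and 2365 in B cells and 2188, 2243 and 2075 in plasma cells (-0.03 ± 0.14, adjusted p = 0.884). Neither gene's groups were separate, and without B cell array 1 Farsa was called lower (-0.34, adjusted p = 0.0335). The 3 other probe sets of Farsa had fold changes of -0.99 ± 0.39, -0.38 ± 0.18 and -0.69 ± 0.20, of which the last, over background on 2 of 6 arrays, was called lower (adjusted p = 0.0438). The probe sets of Farsb disagreed with each other. At 1353, 2049 and 1961 in B cells and 176, 195 and 205 in plasma cells, 1 of them fell by 3.09 on the log2 scale (± 0.19 SE, adjusted p = 0.000165 over all probe sets). The other 2 had 0.10 and 0.09 and were not called. With the mean of all its probe sets Farsb was called lower (-0.73, adjusted p = 0.0129), and so was Farsa (-0.57, adjusted p = 0.0333).

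**Figure D2:**
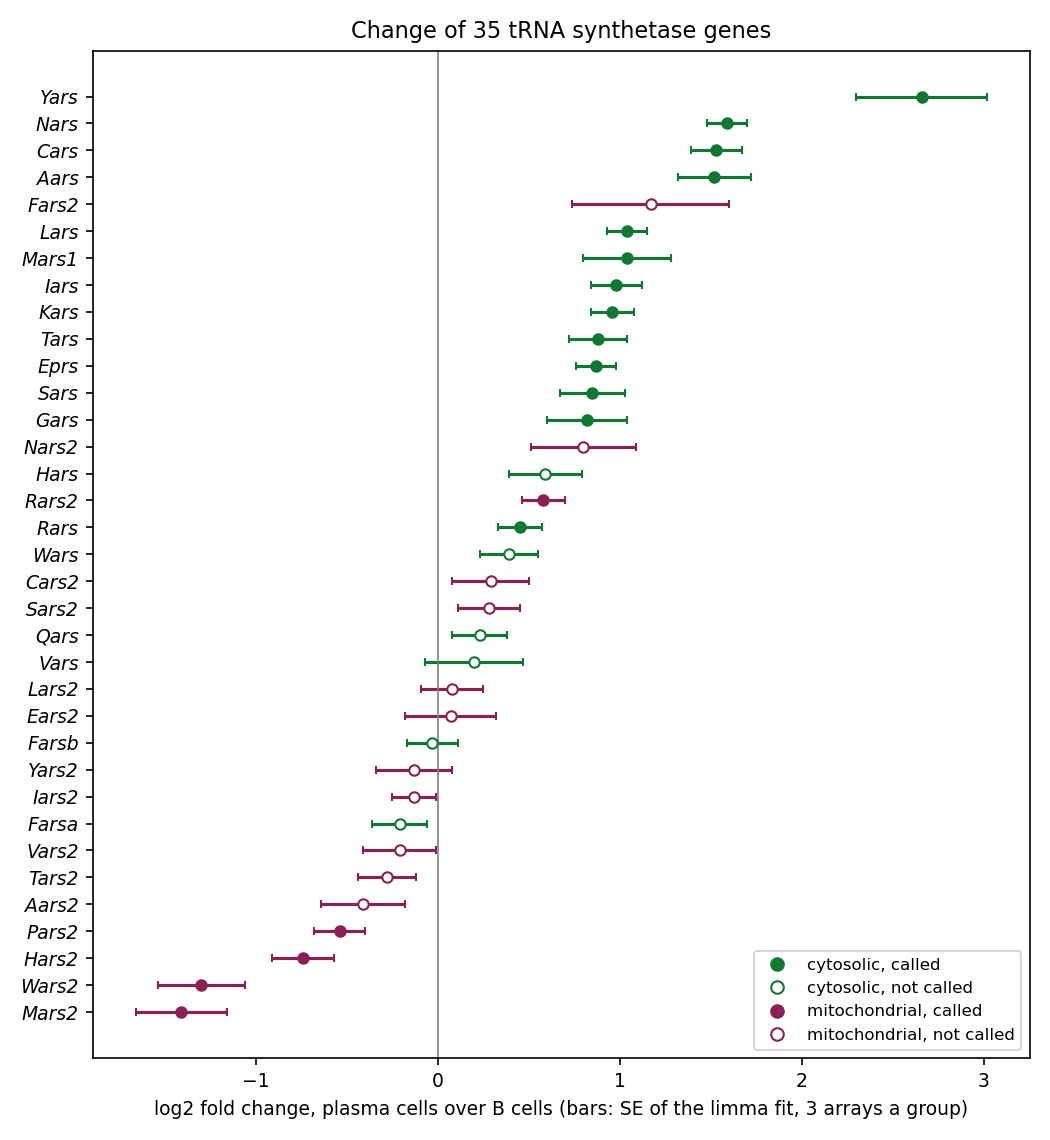
Log2 fold change of plasma cells over B cells for the 35 synthetase genes, with the standard error of the limma fit (3 arrays a group). Green marks cytosolic and purple mitochondrial genes, filled symbols are called at adjusted p under 0.05 and open ones are not. Yars has the highest value at 2.66 and Mars2 the lowest at -1.41.

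Among the 16 mitochondrial synthetases 4 were called lower and 1 higher. Mars2, the mitochondrial methionine enzyme, was at 152, 266 and 278 in B cells and 70.4, 89.4 and 65.8 in plasma cells. Every plasma cell array lay below every B cell array, and the fold change was -1.41 ± 0.25 (adjusted p = 0.00857), or -1.67 without B cell array 1. Wars2, for tryptophan, was at 141, 231 and 243 in B cells and 57.0, 80.2 and 79.7 in plasma cells (-1.30 ± 0.24, adjusted p = 0.00973). Second probe sets of Mars2 and Wars2 fell by 0.99 ± 0.25 and 0.94 ± 0.19 on the log2 scale. Both calls held in all 17 settings. Hars2, for histidine, was at 808, 1159 and 992 in B cells and 586, 612 and 533 in plasma cells (-0.74 ± 0.17, adjusted p = 0.0196), and a second probe set fell as well (-0.87 ± 0.18). Pars2, the proline enzyme, was at 272, 276 and 296 in B cells and 218, 175 and 173 in plasma cells (-0.54 ± 0.14, adjusted p = 0.0297). B cell array 1 did not stand apart for Pars2.

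The mitochondrial gene that rose was Rars2, for arginine. It was at 802, 744 and 732 in B cells and 1085, 1222 and 1115 in plasma cells (0.58 ± 0.12, adjusted p = 0.0138), and it was the 1 member not lower on B cell array 1 than on the mean of the others. Fars2, for phenylalanine, was at 115, 412 and 276 in B cells and 562, 581 and 524 in plasma cells. Groups were separate, but the B cell arrays spread so widely that the fold change of 1.17 ± 0.43 was not called (adjusted p = 0.0933). It was called without B cell array 1 (0.69, adjusted p = 0.0344) or array 2 (1.54, adjusted p = 0.041), and its second probe set rose by 0.89 ± 0.26. Nars2, for asparagine, was at 93.9, 194 and 189 against 262, 325 and 248 (0.80 ± 0.29, adjusted p = 0.0885), and was called higher without B cell array 1 (0.49, adjusted p = 0.0407). Its other probe set, dim at 34.1 to 70.3, had -0.22 ± 0.26 and was not called. With the mean of its probe sets Nars2 had 0.29 (adjusted p = 0.451). The remaining 9 genes had fold changes between -0.41 (Aars2) and 0.29 (Cars2). Iars2 was at 884, 846 and 988 in B cells and 825, 831 and 810 in plasma cells (-0.13 ± 0.12), below but close, and the other 8 overlapped between groups. Of these, Sars2 (0.28), Lars2 (0.08) and Ears2 (0.07) had small positive values, and the last of these changed sign without B cell array 1 (-0.15), as did Lars2 (-0.07). Other probe sets moved for Cars2, by 0.77 ± 0.17 upward, and for Ears2, where a dim one fell (-1.12 ± 0.26). Without B cell array 1, 4 of those 9 were called lower, Aars2 (-0.63, adjusted p = 0.0191), Vars2 (-0.40, adjusted p = 0.0476), Tars2 (-0.40, adjusted p = 0.0463) and Yars2 (-0.34, adjusted p = 0.0447). Leaving out 1 array also ended 3 calls. That of Hars2 was lost without any array other than B cell array 1 (adjusted p up to 0.0722), that of Pars2 without B cell array 2 or 3 or plasma cell array 2 or 3 (up to 0.114), and that of Rars2 without B cell array 2 or 3 or plasma cell array 1 or 2 (up to 0.0665). Median centring ended the same 3 calls.

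For 14 amino acids a cytosolic gene that serves no other amino acid was paired with a separate mitochondrial gene, and both were measured. Phenylalanine was represented by Farsa. Eprs (0.87), which serves glutamate and proline together, was left out of the pairs, and so were Ears2 (0.07) and Pars2 (-0.54). In 12 of 14 pairs the cytosolic gene had the higher log2 fold change, with a median difference of 1.14 over the pairs. The tyrosine pair differed most, by 2.78 (Yars 2.66, Yars2 -0.13), followed by methionine with 2.45 (Mars1 1.04, Mars2 -1.41) and alanine with 1.93 (Aars 1.52, Aars2 -0.41). Methionine was the pair whose members were called in opposite directions. Pairs that ran the other way were phenylalanine with -1.38 (Farsa -0.21, Fars2 1.17) and arginine with -0.12 (Rars 0.45, Rars2 0.58), and arginine was the pair in which both genes rose. The difference between the pair's log2 levels was tested by an exact two-sided permutation of the 6 arrays, where 3 against 3 cannot go below p = 0.1. In 13 of 14 pairs, phenylalanine among them, this smallest p was reached (adjusted over the 14 pairs, exact permutation p = 0.108), and arginine had an exact permutation p of 0.2. No pair can pass a threshold of 0.05 by this permutation test. The smallest p is reached whenever the groups do not overlap, as held for 47.8% of all single genes. The share over gene pairs in general was not computed, and all pairs share the same 6 arrays. Without B cell array 1 the differences of the pairs named here were 2.57 for tyrosine, 2.45 for methionine, 1.94 for alanine, -1.03 for phenylalanine and -0.16 for arginine.

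**Figure D3:**
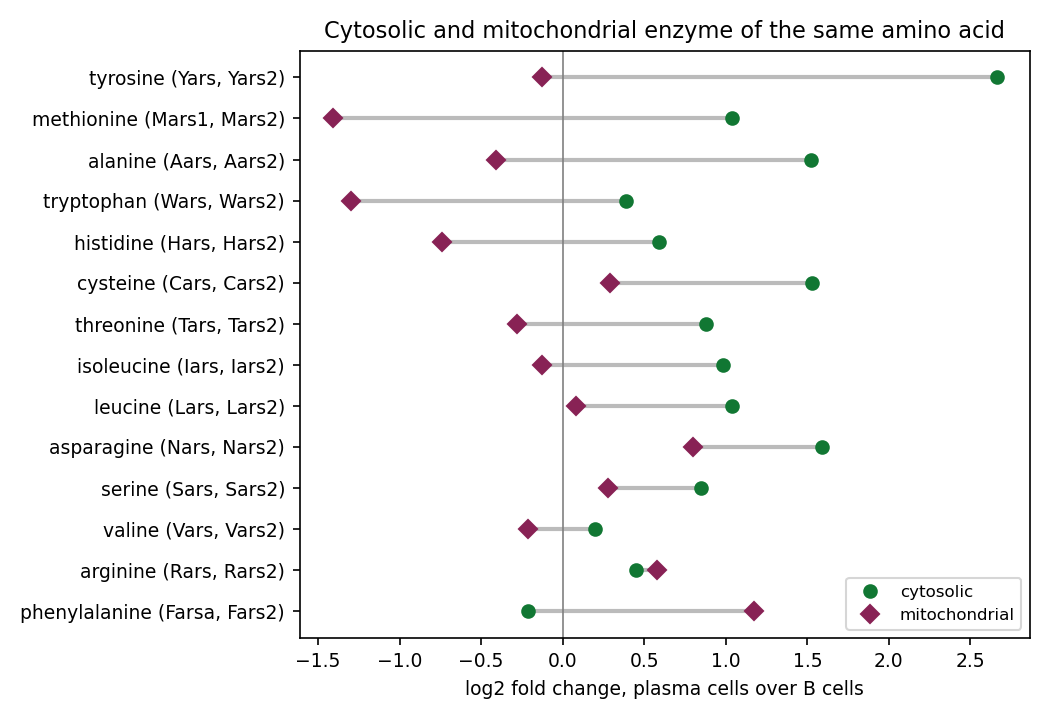
Log2 fold change of plasma cells over B cells for the cytosolic (green circle) and the mitochondrial (purple diamond) enzyme gene of 14 amino acids, in order of their difference. The circle lies to the right of the diamond in 12 of 14 pairs, with phenylalanine and arginine the other way round.

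Promoters of the cytosolic genes are shown because several of these genes moved together and some are known ATF4 targets. RefSeq sequences (build GRCm38.p6) were matched for 26 genes, 12 cytosolic and 14 mitochondrial. None was matched for Cars, Hars, Lars, Nars, Rars, Vars, Wars, Hars2 or Pars2. Nars and Cars, which rose most after Yars, were therefore not searched. The 250 bases before the annotated start were searched on both strands for the core of the C/EBP-ATF response element bound by ATF4, TGATGNAA (TTNCATCA on the other strand). It was present in 3 of 12 cytosolic genes, Aars, Gars and Tars, and in 0 of 14 mitochondrial genes, against 3.9% of all 27025 genes in the table. Printed in capitals, it began 112 bases before the start of Aars, 30 before that of Gars and 15 before that of Tars. Yars, which rose most, and Mars2, which fell most, are printed beside them and hold no match. Sequences run 5′ to 3′ on the strand of the gene.

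Aars, chr8:111033592-111033841, plus strand: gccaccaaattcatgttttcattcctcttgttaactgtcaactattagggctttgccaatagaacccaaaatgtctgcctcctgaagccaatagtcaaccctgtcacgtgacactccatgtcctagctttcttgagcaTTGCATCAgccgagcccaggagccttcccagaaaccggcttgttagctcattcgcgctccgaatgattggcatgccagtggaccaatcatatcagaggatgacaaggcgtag

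Gars, chr6:55037751-55038000, plus strand: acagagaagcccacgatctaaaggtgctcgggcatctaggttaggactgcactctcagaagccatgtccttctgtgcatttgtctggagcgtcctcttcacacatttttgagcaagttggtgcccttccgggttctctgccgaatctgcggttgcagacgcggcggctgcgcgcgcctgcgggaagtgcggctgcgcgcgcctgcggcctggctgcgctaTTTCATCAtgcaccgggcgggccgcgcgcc

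Tars, chr15:11399659-11399908, minus strand: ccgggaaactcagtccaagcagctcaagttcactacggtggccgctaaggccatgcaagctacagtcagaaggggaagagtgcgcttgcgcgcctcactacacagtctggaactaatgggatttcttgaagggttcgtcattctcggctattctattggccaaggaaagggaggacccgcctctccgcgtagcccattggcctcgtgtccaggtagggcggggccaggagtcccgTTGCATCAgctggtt

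Yars, chr4:129189653-129189902, plus strand: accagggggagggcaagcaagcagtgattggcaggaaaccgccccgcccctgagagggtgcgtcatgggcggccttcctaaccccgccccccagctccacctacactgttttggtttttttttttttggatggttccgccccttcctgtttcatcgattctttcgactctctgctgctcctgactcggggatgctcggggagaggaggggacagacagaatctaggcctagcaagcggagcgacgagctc

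Mars2, chr1:55236927-55237176, plus strand: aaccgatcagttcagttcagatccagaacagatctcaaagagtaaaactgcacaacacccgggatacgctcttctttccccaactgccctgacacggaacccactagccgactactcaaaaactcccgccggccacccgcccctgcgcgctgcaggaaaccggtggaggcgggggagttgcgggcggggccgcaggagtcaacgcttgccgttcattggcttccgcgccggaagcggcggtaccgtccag

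These genes had log2 fold changes of 1.52 (Aars), 0.82 (Gars), 0.88 (Tars), 2.66 (Yars) and -1.41 (Mars2). Among the genes searched, those without a match included Yars, the one with the largest rise. Also without a match were Eprs (0.87), Iars (0.98), Kars (0.96), Mars1 (1.04) and Sars (0.85), all called higher. The same held for Farsa, Farsb and Qars, which were not called. A part of ATF4 in these changes was not tested. The palindromic E-box CACGTG, a site of Myc-type factors, was in 3 of 12 cytosolic promoters (Aars, Farsb and Iars) and 0 of 14 mitochondrial ones, against 6.9% of all genes. TGACGTGG, a core bound by unfolded protein response factors (CCACGTCA on the other strand), was in 0 of 26 of them, against 0.6% of all genes. No motif searched contains another. A match is a description of these letters, and a missing match says nothing of binding elsewhere.

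Of 11 measured genes for further charging and proofreading 3 rose (27.3%, against 17.6% of all genes) and 2 fell (18.2%, against 12.3%). Without B cell array 1 the counts were 3 higher and 3 lower, and the median moved from 0.05 to 0.21. In that fit 22.7% of all genes were called higher and 21.1% lower. Tarsl2, a further cytosolic threonine enzyme, was at 131, 265 and 265 in B cells and 534, 501 and 555 in plasma cells (1.27 ± 0.28, adjusted p = 0.0178). Aarsd1, which clears wrongly charged alanine tRNA, rose by 1.22 ± 0.18 and Prorsd1, of the same list, by 0.61 ± 0.15. Pstk, a kinase on the route to selenocysteine tRNA, fell (-0.64 ± 0.13). So did Mtfmt, which formylates the methionine tRNA that Mars2 charges. Mtfmt was at 1230, 1418 and 1517 in B cells and 1023, 828 and 959 in plasma cells (-0.56 ± 0.15, adjusted p = 0.0338). The call of Mtfmt and that of Aimp2 were lost without any array other than B cell array 1 (adjusted p up to 0.121 and 0.162), that of Tarsl2 without any plasma cell array (up to 0.0659), that of Prorsd1 without B cell array 3 or any plasma cell array (up to 0.0903) and that of Pstk without B cell array 2 or 3 or plasma cell array 2 (up to 0.0605). Among 21 genes of tRNA processing and export 4 rose (19.0%, against 17.6% of all genes) and 0 fell (against 12.3%). Without B cell array 1, 4 were called higher and 6 lower, against 22.7% and 21.1% of all genes. Those that rose include Prorp, the catalytic subunit of mitochondrial RNase P (1.02 ± 0.18), the nuclear tRNA exporter Xpot (0.67 ± 0.12, adjusted p = 0.0545 with median centring) and Hsd17b10, another RNase P subunit (0.58 ± 0.11), whose call was lost without plasma cell array 1 or 2 (adjusted p up to 0.0602).

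Genes of tRNA modification gave 5 higher (11.1%) and 8 lower (17.8%) of 45 measured, against 17.6% and 12.3% of all genes, and a median of -0.09. There were 8 higher and 14 lower of 45 without B cell array 1, against 22.7% and 21.1% of all genes, with a median of -0.19. Mettl1, the catalytic subunit of the enzyme that methylates guanosine in tRNA, was at 391, 359 and 422 in B cells and 1512, 1596 and 1344 in plasma cells (1.88 ± 0.13, adjusted p = 0.000255). Its partner subunit Wdr4 moved the other way, from 791, 452 and 505 to 330, 235 and 334 (-0.90 ± 0.26, adjusted p = 0.0456). These values are from the brightest of 3 probe sets for Mettl1 and of 4 for Wdr4, and the others were not compared singly. The groups of both genes were separate, but the call of Wdr4 was lost without any array other than B cell array 1 (adjusted p up to 0.141). Qtrt1, of queuosine formation, rose by 1.16 ± 0.22 and the wobble deaminase subunit Adat2 by 0.83 ± 0.21. The thiolation gene Ctu2 (-0.87 ± 0.21) and the methyltransferase Trdmt1 (-0.74 ± 0.15) fell. Of these, Adat2 lost its call without B cell array 2 or 3 or plasma cell array 2 or 3 (adjusted p up to 0.102), Ctu2 without any array other than B cell array 1 (up to 0.0918) and when probe sets suffixed x or s were left out (-0.27, adjusted p = 0.332), and Trdmt1 without B cell array 2 or plasma cell array 1 (up to 0.0614).

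RNA polymerase III, which transcribes the tRNA genes, had 4 of 20 measured genes higher and 2 lower, near the shares of 17.6% and 12.3% over all genes, with a median of -0.22. Leaving out B cell array 1, the list had 4 higher and 10 lower of 20, against 22.7% and 21.1% of all genes, and a median of -0.36. Its subunit Polr3k rose by 1.17 ± 0.12 and the initiation factor subunits Gtf3c6 and Gtf3c3 by 1.16 ± 0.14 and 0.56 ± 0.15. The subunit Polr3f (-0.76 ± 0.15) and Maf1, a repressor of this polymerase (-0.52 ± 0.14), fell. Calls of Gtf3c3 and Maf1 were lost without any array other than B cell array 1 (adjusted p up to 0.123 and 0.128) and that of Polr3f without plasma cell array 1 or 2 (up to 0.0566).

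The list for the GCN2 and ATF4 pathway holds ATF4 targets as well as the sensor of uncharged tRNA. Of its 26 measured genes 15 rose (57.7%, against 17.6% of all genes) and 2 fell (7.7%, against 12.3%), with a median of 1.44. These counts were 17 and 3 of 26 without B cell array 1, against 22.7% and 21.1% of all genes, with a median of 1.25. Eif2ak4, which encodes the sensor kinase GCN2, was at 956, 1312 and 1195 in B cells and 544, 524 and 533 in plasma cells. Its groups were well apart, with a fold change of -1.08 ± 0.15 (adjusted p = 0.00331), and it was called lower in all 17 settings. Atf4 was at 5139, 9031 and 8983 in B cells and 9111, 9050 and 9659 in plasma cells and was not called (0.31 ± 0.25, adjusted p = 0.397). Ddit3, another target, was not called either (0.33 ± 0.26). The ATF4 target Asns, which makes the asparagine that Nars loads, was at 95.6, 53.5 and 56.1 in B cells and 4981, 4952 and 5180 in plasma cells (5.94 ± 0.21, adjusted p = 4.15e-05). Slc6a9, a glycine transporter (5.89 ± 0.27), and Chac1, which degrades glutathione (5.71 ± 0.27), rose by similar amounts, but of the B cell arrays each was over background on just 1, so these folds depend on the added constant. The stress response gene Ddit4 fell (-0.72 ± 0.16), a call lost without B cell array 2 or 3 or plasma cell array 1 or 2 (adjusted p up to 0.0761).

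**Figure D4:**
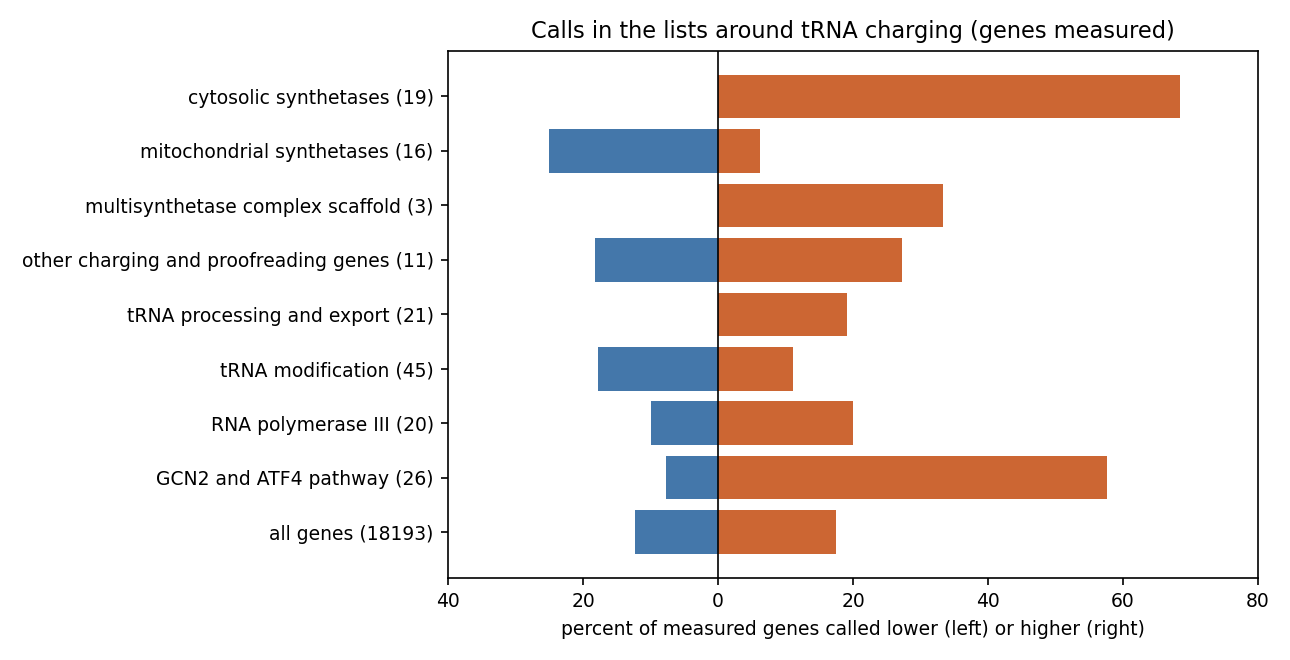
Percent of the measured genes of each list (number in brackets) called higher (orange, to the right) or lower (blue, to the left) in plasma cells at adjusted p under 0.05. Cytosolic synthetases have 68.4% higher and the mitochondrial ones 25.0% lower, where all genes have 17.6% and 12.3%.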

How the data were processed

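Affymetrix arrays were run on RNA amplified with NuGEN Ovation V2 and labelled with biotin, per the labels' protocols. The authors deposited 1 intensity value on a linear scale per probe set and array. How they summarised, corrected and normalized the probes was not given in the sources used here. Upper quartiles ranged from 625 to 684. The median intensity was 130.0 on B cell array 1 and 86.7 to 95.1 on the other arrays. Values under 16 made up 13.1% of B cell array 1 and 20.7% to 22.6% of the others. Of 45101 probe sets, 34945 had 1 gene symbol in the platform annotation of 2016, and symbols were updated through Entrez identifiers to RefSeq GRCm38.p6 (34741 matched). Probe sets with several symbols (932), none (9160) or controls (64) were left out.

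For each of 18193 genes the probe set of highest mean log2(intensity + 16) was used. Plasma cells were compared with B cells by limma 3.58.1 in R 4.3.3 (lmFit, eBayes without trend) on all 6 arrays, with p-values adjusted by Benjamini-Hochberg over these genes and called under 0.05. Other probe sets were read from a fit over all single-symbol probe sets. SE is that of the fitted log2 fold change. Background is the 95th percentile of 27 bacterial control probe sets, between 23.0 and 41.8 on the 6 arrays. The synthetase genes, the lists, the motifs and the tests were chosen with earlier results of these data known. All synthetase genes are named. Of the other lists up to 3 called genes in each direction are named, Atf4, Ddit3, Cd3e and Xist by choice, and Aimp1 and Eef1e1 after their values were seen. No label says that same-numbered arrays pair, and the main fit did not pair them. Deviations of same-numbered arrays from their group means correlated by 0.048, 0.005 and 0.046 over genes. With 3 arrays a group and B cell array 1 set apart, these values cannot exclude a pairing. The number of arrays limits the precision.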

Additional observations from a re-analysis of the deposited data

How the results depend on the processing

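The 35 synthetase genes gave 560 values under 16 alternatives, of which 477 kept their direction and their side of the threshold, 43 lost a call, 24 gained one and 16 changed sign. Of the 18 called synthetase genes 0 changed sign and 11 were called in every setting. Sign changes occurred with array weights in Vars (-0.13), Ears2 (-0.05) and Lars2 (-0.06), with the mean of probe sets in Ears2 (-0.49), Iars2 (0.01), Lars2 (-0.10) and Yars2 (0.05), and when probe sets suffixed x or s were left out in Farsb (0.10) and Yars2 (0.22). Leaving out each array in turn also gave both signs, between -0.13 and 0.02 for Farsb, -0.10 and 0.39 for Vars, -0.15 and 0.20 for Ears2, -0.07 and 0.18 for Lars2, and -0.34 and 0.03 for Yars2. The markers Alas2 (-0.20 to 1.25) and Cd3e (-0.16 to 2.60) did likewise. The value of -0.34 for Yars2 and that of 2.60 for Cd3e, both without B cell array 1, were called.

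Leaving out each array in turn, 9 to 14 cytosolic genes were called higher and 0 to 1 lower (median fold change 0.74 to 0.94), and 0 to 3 mitochondrial genes higher and 2 to 8 lower (-0.25 to -0.03). Over all genes 2224 to 4121 were called higher and 1347 to 3830 lower, against 3193 and 2246 with all arrays. Omitting B cell array 1 gave 3830 lower genes, and omitting the first or second array of plasma cells gave 1347 or 1369. The mean of probe sets gave 2 lower cytosolic genes. Array weights gave 1 lower cytosolic, 2 higher and 8 lower mitochondrial genes, and 4840 higher and 4654 lower genes in all, with B cell array 1 weighing 0.0938. Median centring gave 0 higher and 2 lower mitochondrial genes and 9 higher cytosolic genes, and leaving out those suffixes gave 2 higher mitochondrial genes. With the replicate number as a block, 11 cytosolic genes were called higher, 0 mitochondrial genes higher and 2 lower, and over all genes 2457 higher and 1664 lower, so some calls were lost. That fit has fewer residual degrees of freedom. The causes of the other shifts were not tested. Median log2 fold change of all genes moved by at most 0.07 between settings.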
